A study of Saccharomyces cerevisiae with 21 samples.

Results

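The 10 genes followed here act in meiosis or spore formation, carry introns, and were measured in vegetative cells of the budding yeast Saccharomyces cerevisiae. They were taken by name from the 6571 coding sequences of the deposited tables, and all 10 were present: MEI4 (YER044C-A), REC107 (YJR021C), HOP2 (YGL033W), MND1 (YGL183C), DMC1 (YER179W), SPO22 (YIL073C), HFM1 (YGL251C), PCH2 (YBR186W), AMA1 (YGR225W) and LDS2 (YOL047C). Poly-A selected RNA was sequenced in 21 libraries, 3 from each of 7 groups, and the values are Salmon estimated read counts, and TPM, which are counts scaled by length and library size, over spliced coding sequences. Cells with a humanized U1C, the U1 snRNP protein encoded by YHC1, were set against wildtype at low density (OD600 near 0.4 for both) and at high density, in an experiment that was done first (OD600 near 8 for humanized and near 5 for wildtype). A Luc7 triple mutant, labelled low OD without an OD600 value, was set against the low-density wildtype. A Luc7 degron strain with IAA, treated for 6 hours with beta-estradiol and IAA, was set against the same strain labelled minus IAA, for which the labels do not say whether beta-estradiol was given. The labels name neither the strain background nor the residues that were changed, and they do not say whether replicates were separate cultures, so p-values compare libraries, whose spread may be technical.

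Meiosis in budding yeast starts only in starved diploid cells, and in growing cells its early genes are held down by the repressor Ume6 at a promoter element called URS1. Several meiosis genes are also held back at splicing. Their introns have 5′ splice sites that pair poorly with U1 snRNA, and some are removed efficiently only when the meiosis-specific protein Mer1, with the U1 snRNP protein Nam8, acts on an enhancer in the intron. U1C and Luc7 both sit where the U1 snRNP meets the 5′ splice site. A coding-sequence count adds reads from spliced and unspliced transcripts, so the values below are transcript levels and say nothing of the spliced share.

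The 5′ splice sites of the 10 genes are shown first, because the altered proteins act there. Each line gives the last 10 exon bases in lower case, the first 6 intron bases in capitals and the next 10 intron bases, from RefSeq on the R64 (sacCer3) build.
MEI4 intron 1 (chrV:239696-239721, minus strand): ctggataatcGTACGTgaaattgtca
REC107 intron 1 (chrX:469248-469273, minus strand): gctacgaacgGTTCGTaccaacacag
HOP2 intron 1 (chrVII:435670-435695, plus strand): ggctcagaagGTTAAGtattttttta
HOP2 intron 2 (chrVII:436303-436328, plus strand): tgaatttttgGTATGTattttgaaca
MND1 intron 1 (chrVII:157267-157292, minus strand): ttcaacaatgGTATGTctaataaaac
DMC1 intron 1 (chrV:548543-548568, plus strand): cacagtcaatGTATGTtataataaca
SPO22 intron 1 (chrIX:225884-225909, minus strand): gagttatgcgGTATATaacaaaatgc
HFM1 intron 1 (chrVII:31563-31588, minus strand): tctccaaataGTAGTAacgaagctta
PCH2 intron 1 (chrII:602094-602119, plus strand): caaatgctcgGTATGTttttttcttt
AMA1 intron 1 (chrVII:946318-946343, plus strand): caagtctgtgGTACGTtattaagagc
LDS2 intron 1 (chrXV:242489-242514, minus strand): tccgtataaaGTATGTtgatgttcca
The common yeast 5′ site GTATGT stood in PCH2, DMC1, MND1, LDS2 and the second intron of HOP2. Of the 10 first introns 6 (60%) began with another sequence, against 46 of 170 (27.1%) in the other nuclear non-ribosomal genes with an intron. GTACGT, in MEI4 and AMA1, occurred in 9 of those 170 genes, and GTTCGT, in REC107, in 1. GTATAT of SPO22, GTAGTA of HFM1 and GTTAAG of HOP2 occurred in none of the 170. The intron of MND1 follows directly on its start codon.

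REC107, SPO22, HFM1 and AMA1 are known as the genes whose splicing depends on Mer1. Their whole introns follow, with the 5′ site, the match to the Mer1 enhancer pattern, any TACTAAC branch point sequence and the last 3 bases in capitals.
REC107 intron 1 (chrX:469184-469263, minus strand): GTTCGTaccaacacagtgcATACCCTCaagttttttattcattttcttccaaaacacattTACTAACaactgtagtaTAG
SPO22 intron 1 (chrIX:225810-225899, minus strand): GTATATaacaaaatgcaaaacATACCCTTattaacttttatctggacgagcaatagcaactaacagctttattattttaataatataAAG
HFM1 intron 1 (chrVII:31427-31578, minus strand): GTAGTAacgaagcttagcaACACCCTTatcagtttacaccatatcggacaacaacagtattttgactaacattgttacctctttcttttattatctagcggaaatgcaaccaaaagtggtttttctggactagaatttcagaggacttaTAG
AMA1 intron 1 (chrVII:946328-946420, plus strand): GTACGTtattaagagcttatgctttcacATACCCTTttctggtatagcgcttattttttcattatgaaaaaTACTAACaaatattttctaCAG
The enhancer was searched as ANACCCTN, with N in place of the pyrimidine code. On the sense strand it occurred in 4 of the 11 introns (36.4%), these 4, beginning 20, 22, 20 and 29 bases into the introns of REC107, SPO22, HFM1 and AMA1. It occurred in 4 of 177 introns (2.26%) of the other non-ribosomal genes, and on the opposite strand in 0 of 11 and 4 of 177. TACTAAC on the sense strand was in 7 of the 11 introns and 138 of the 177. With any first base, as NACTAAC, it was in 11 of 11 and 161 of 177. The introns were 62 to 152 bases long, against a median of 99 in the others. These matches are letters in a sequence and were not tested for use.

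**Figure D1:**
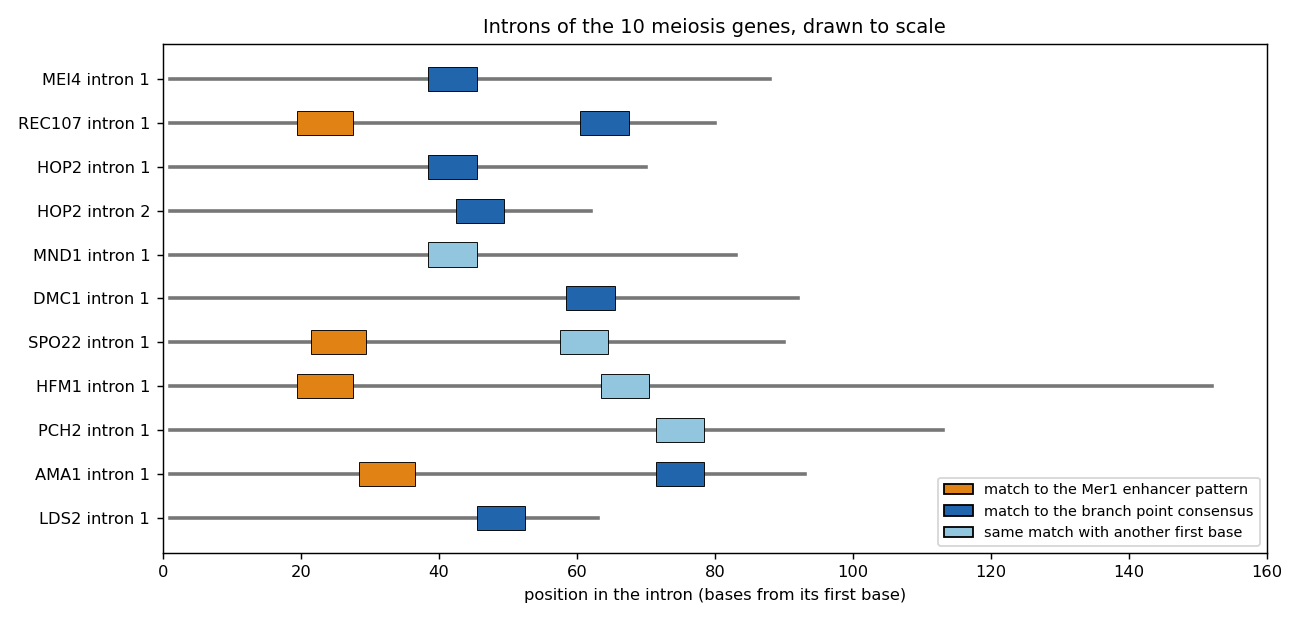
Map of the 11 introns of the 10 genes, to scale, with the position in bases from the first intron base on the x axis. Orange boxes mark ANACCCTN, dark blue TACTAAC and light blue the same branch point letters with another first base. The orange box lies 20 to 29 bases into the introns of REC107, SPO22, HFM1 and AMA1.

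The core of URS1, GGCGGC on either strand, was searched in the 250 bases before each start codon. It was found in 5 of the 10 genes (50%) and in 249 of 5875 genes (4.24%). The windows below hold it in capitals with 10 bases on each side, on the coding strand of the gene.
MEI4 (chrV:239855-239880, minus strand): tatattgctgGGCGGCtaaatgtttc
HOP2 (chrVII:435486-435511, plus strand): ttatgtcctcGGCGGCtaaattttcc
DMC1 (chrV:548273-548298, plus strand): ccggaaaataGCCGCCcaaggataaa
SPO22 (chrIX:226063-226088, minus strand): tacaaacttcGGCGGCtaattgcaaa
PCH2 (chrII:600448-600473, plus strand): caataaggtgGGCGGCaaatctacga
The element lay 89 to 132 bases before the start codon. REC107, MND1, HFM1, AMA1 and LDS2 had no match in this window.

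All 10 transcripts were detected in every library, at low levels. Libraries held 28.5 to 46.8 M assigned reads, of which 3002 to 6168 fell on the 10 genes together. The median of their mean TPM was 5.22, against 52.4 for the other 170 non-ribosomal intron genes and 31.2 for all 6571 sequences. REC107, a subunit of the complex that triggers meiotic DNA breaks, was the most abundant, with a mean of 14.6 TPM over the 21 libraries and 509 to 927 reads per library. It was highest in all 7 groups without overlap with the next gene, and 26.9% of all sequences lay below it. MEI4, its partner in break formation, had 2.61 TPM and 82 to 274 reads.

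The meiotic recombinase DMC1 had 8.05 TPM and 247 to 617 reads. HOP2 and MND1 encode the dimer that helps Dmc1 invade a homologous duplex, and they averaged 0.981 and 0.945 TPM. HOP2 had 3 to 57 reads and MND1 9 to 59, so their fold changes carry large errors. SPO22, a scaffold of the crossover (ZMM) proteins also called Zip4, had 6.36 TPM and 580 to 1534 reads. HFM1, the crossover helicase also called Mer3, had 5.97 TPM and 739 to 1950 reads.

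PCH2, an ATPase of the meiotic checkpoint that removes Hop1 from chromosomes, had 4.78 TPM and 318 to 716 reads. AMA1, a meiosis-specific activator of the anaphase-promoting complex, had 1.16 TPM and 46 to 218 reads. HOP2, MND1 and AMA1 took the last 3 ranks in every group, in an order that differed between groups. The last was HOP2 in wildtype and humanized cells at low density and in the triple mutant, MND1 in undepleted cells and in both high-density groups, and AMA1 in depleted cells. In humanized cells at low density, in undepleted cells and in wildtype at high density the last gene overlapped the one before it. LDS2, a lipid droplet protein that contributes to the spore wall, had 5.65 TPM and 91 to 634 reads. In most groups DMC1, SPO22, HFM1, PCH2 and LDS2 formed a middle range, in which several neighbours overlapped. In wildtype at low density, for example, HFM1, PCH2 and SPO22 had 4.42 ± 0.86, 4.37 ± 0.35 and 4.30 ± 0.72 TPM (SD, n = 3) and overlapped in that order.

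**Figure D2:**
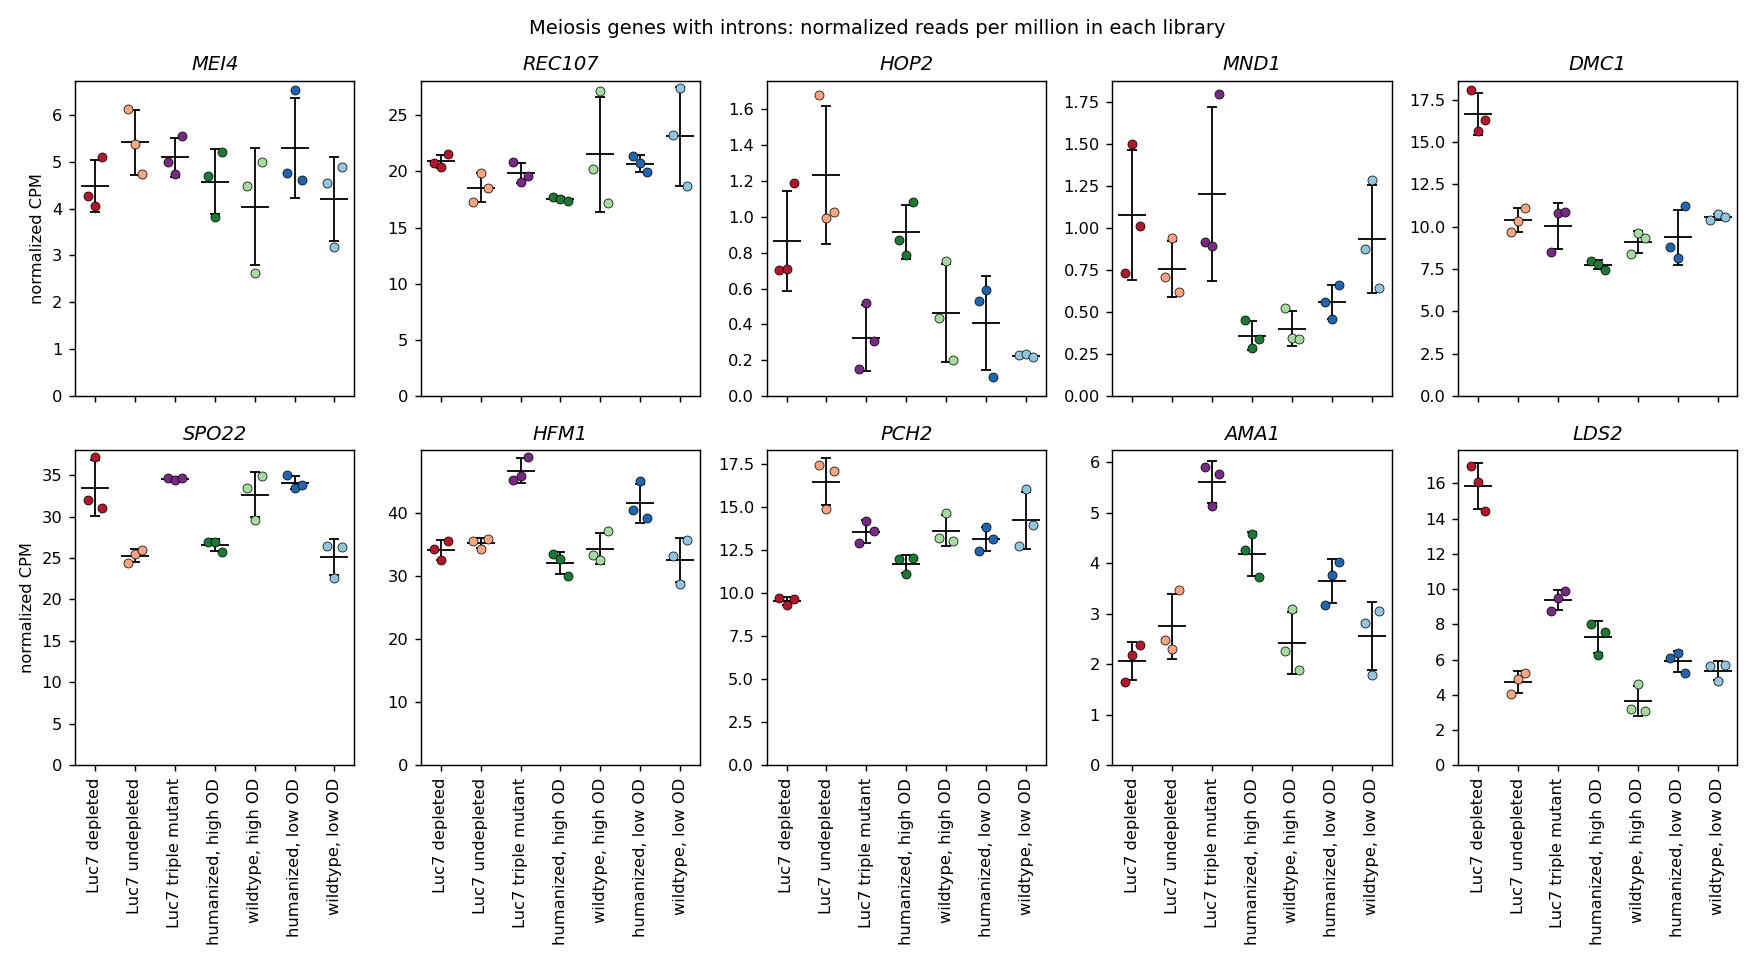
Normalized CPM (read counts scaled by library size with TMM factors over all 21 libraries) of the 10 genes. Points are libraries, and bars are the mean and SD of 3. LDS2 stands highest in the Luc7-depleted libraries, AMA1 and HFM1 in the triple mutant, and HOP2 and MND1 stay below 2 CPM in every library.

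Mating-type markers were mostly those of a cells. STE2, the receptor of a cells, averaged 284 to 925 normalized CPM over the 7 groups, and STE6 and BAR1 84.5 to 481. AGA2 and ASG7 averaged 2.66 to 28.2, and the short a-factor genes MFA1 and MFA2 only 0.0285 to 1.08. Of the alpha-cell markers STE3, MF(ALPHA)1 and MF(ALPHA)2 averaged 0.187 to 8.41, whereas SAG1 averaged 36.1 to 67.2. The 7 meiotic cell markers (IME1, IME2, NDT80, SPO11, ZIP1, HOP1 and SPS4) summed to 90.7 to 143 normalized CPM per library. YHC1 averaged 28.9 to 38.7 normalized CPM, and was lower in humanized cells than in wildtype at both densities. By the edgeR test described below it was also lower in the triple mutant than in wildtype (−0.21 ± 0.07, adjusted p = 0.0197). How the humanized sequence affects the read count of YHC1 was not tested. By the same test LUC7 was higher in humanized cells than in wildtype at low density (+0.37 ± 0.09, adjusted p = 0.0389) and not called at high density (+0.24 ± 0.11). LUC7 averaged 119 ± 23 normalized CPM with IAA and 96.8 ± 26.7 without (SD, n = 3 each), and its transcript does not report the loss of the protein.

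The comparisons that follow test each gene in a fit over all sequences with edgeR's quasi-likelihood test, 3 libraries per group. A call is a Benjamini-Hochberg adjusted p below 0.05, and each fold change is log2 ± SE. Per-library values are CPM scaled over all 21 libraries, whereas each test scales its own libraries. All 10 genes passed the filter on low counts in every fit. In bulk RNA, fewer cells of a type and less RNA per cell cannot be told apart.

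In the Luc7 depletion, libraries with IAA against those without, 4 of the 10 genes were called. Effects of the treatment and of the loss of Luc7 cannot be told apart here. LDS2 rose most, DMC1 and SPO22 rose less, and PCH2 fell. Of all 6156 sequences tested 68.2% were called, 34.0% higher and 34.3% lower, so the share of called genes among the 10 was below that background. LDS2 had 17.0, 16.1 and 14.4 CPM (557, 634 and 486 reads) with IAA, against 4.04, 4.92 and 5.25 CPM (137, 178 and 220 reads) without. Every depleted library lay far above every undepleted one, and the fold change was +1.74 ± 0.13, or 3.33-fold (adjusted p = 1.5e-06).

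DMC1 had 18.1, 15.7 and 16.3 CPM in depleted cells, against 9.69, 10.3 and 11.1 CPM in undepleted cells. The groups stood apart (+0.68 ± 0.10, adjusted p = 0.000197), and the depleted group was the highest of all 7 for this gene. SPO22 had 32.0, 37.2 and 31.0 CPM in depleted cells, against 24.4, 25.5 and 26.0 CPM in undepleted cells (+0.40 ± 0.08, adjusted p = 0.00183). PCH2 had 9.70, 9.29 and 9.65 CPM in depleted cells, against 17.5, 14.9 and 17.1 CPM in undepleted cells. It fell by 0.79 ± 0.10 on the log2 scale (adjusted p = 5.6e-05), and in CPM the depleted group was its lowest of the 7. In TPM the depleted group overlapped wildtype at low density (4.33 ± 0.13 and 4.37 ± 0.35, SD, n = 3 each).

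The break and strand-exchange partners did not pass edgeR's test. REC107 had 20.8, 20.4 and 21.6 CPM in depleted cells, against 17.3, 19.8 and 18.6 CPM in undepleted cells, groups that did not overlap by a narrow margin (+0.17 ± 0.08, adjusted p = 0.0986). On the log2(TPM + 1) scale with limma-trend REC107 was called higher (+0.40, adjusted p = 0.000989). MEI4 (−0.27 ± 0.17), HOP2 (−0.51 ± 0.34), MND1 (+0.53 ± 0.34) and AMA1 (−0.42 ± 0.23) had overlapping groups and adjusted p of 0.141 to 0.208. In edgeR HFM1 was nearest to no difference, at −0.05 ± 0.07 (adjusted p = 0.536). Over the alternatives that kept all libraries its value ran from −0.17 to +0.19 and was never called. In TPM its groups stood apart, at 6.90 to 7.69 depleted against 6.15 to 6.39 undepleted. In CPM groups did not overlap in 5 of the 10 genes, against 73.6% of all sequences.

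The 4 genes known for Mer1-dependent splicing thus had values of both signs in the depletion, and only SPO22 of them was called. MER1 itself averaged 21.7 ± 1.1 CPM in depleted cells, against 10.9 ± 2.6 CPM in undepleted cells (SD, n = 3 each), and rose by +0.99 ± 0.15 (adjusted p = 0.000188). NAM8 was not called (+0.07 ± 0.05, adjusted p = 0.237). In the triple mutant against wildtype NAM8 was higher (+0.27 ± 0.09, adjusted p = 0.0207) and MER1 was not called (−0.19 ± 0.12). NAM8 was higher in humanized cells at high density (+0.43 ± 0.09, adjusted p = 0.0120) and for density in humanized cells (+0.52 ± 0.09, adjusted p = 0.000635). MER1 was lower for density in wildtype (−0.42 ± 0.13, adjusted p = 0.0231). Neither was called in humanized cells at low density or between the triple mutant and humanized cells. MER1 and NAM8 are described here for their role at these introns, a choice made with their values in view.

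Other parts of these libraries moved with the depletion. Ribosomal protein genes took 4.30 to 5.16% of reads in depleted libraries, against 12.5 to 13.4% in undepleted ones. All 6 tested a-cell markers fell, with a median of −1.73, and their summed level was 499 to 536 CPM in depleted cells, against 1413 to 1568 CPM in undepleted cells. Of 8 haploid markers 5 fell and 1 rose (median −1.42), and the summed level was 520 to 531 CPM, against 1050 to 1123 CPM. The meiotic cell markers summed to 123 to 134 CPM in depleted cells, against 101 to 106 CPM in undepleted cells, with 3 of 7 called higher and 2 lower. No marker of these lists was at 0 in a whole group. The part of these shifts in the 4 calls was not tested. With each library left out in turn the 4 calls held, and in limma-trend on log2(TPM + 1) the fall of PCH2 was smaller (−0.44, adjusted p = 0.00777).

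In the Luc7 triple mutant 4 of the 10 genes rose against wildtype at low density and none was called lower. These were AMA1, LDS2, HFM1 and SPO22, and of all 6107 sequences 54.8% were called, 28.3% higher and 26.5% lower. AMA1 had 5.91, 5.13 and 5.76 CPM (194, 218 and 189 reads) in the triple mutant, against 2.82, 1.79 and 3.05 CPM (74, 46 and 85 reads) in wildtype. The groups were well separated, and the fold change of +1.12 ± 0.20 (2.17-fold, adjusted p = 0.000947) was the largest of the 10. LDS2 had 8.75, 9.48 and 9.91 CPM in the triple mutant, against 5.64, 4.78 and 5.71 CPM in wildtype (+0.79 ± 0.13, adjusted p = 0.000505).

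HFM1 had 45.2, 45.9 and 48.9 CPM in the triple mutant, against 33.1, 28.7 and 35.8 CPM in wildtype. It rose by +0.51 ± 0.08 (adjusted p = 0.000602), and in CPM the triple mutant was its highest group of the 7 without overlap. In TPM the depleted group had a higher mean, at 7.32 ± 0.40 against 6.81 ± 0.23 in the triple mutant (SD, n = 3 each). SPO22 had 34.7, 34.4 and 34.6 CPM in the triple mutant, against 26.5, 22.6 and 26.3 CPM in wildtype (+0.45 ± 0.07, adjusted p = 0.000372). Its 3 mutant libraries were nearly equal, and the spread lay in the wildtype libraries.

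Ribosomal protein genes took 14.3 to 14.9% of reads in the triple mutant, against 15.9 to 18.1% in wildtype, and the meiotic cell markers summed to 128 to 143 CPM, against 103 to 113 CPM. Their part in these calls was not tested. The other 6 genes were not called. HOP2 and MND1, with 5 to 22 and 30 to 59 reads in the mutant against 6 in each and 18 to 33 in wildtype, had +0.56 ± 0.65 and +0.35 ± 0.36. MEI4 had +0.26 ± 0.19, REC107 −0.23 ± 0.11, DMC1 −0.08 ± 0.14 and PCH2 −0.07 ± 0.10, with adjusted p of 0.114 to 0.658. The libraries of both groups stood apart for 4 of the 10, against 61.6% of all sequences. Of the 4 genes known for Mer1-dependent splicing AMA1, HFM1 and SPO22 thus rose, and REC107 did not pass the test. The calls held when any 1 library was left out. An offset fitted to GC content and coding length brought HFM1 to +0.30 and SPO22 to +0.25, still called. In limma-trend AMA1 had +0.68 (adjusted p = 0.0149) on the log2(TPM + 1) scale, where the added 1 shrinks differences between low values. Its TPM was 1.79 ± 0.11 in the triple mutant and 0.754 ± 0.251 in wildtype (SD, n = 3 each).

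Against the low-density humanized cells 3 genes were higher in the triple mutant and none lower (all sequences 17.8% higher and 16.1% lower, 33.9% in all). The triple mutant, humanized and wildtype groups share a fit, and both comparisons of the triple mutant share its libraries. LDS2 was higher at 8.75, 9.48 and 9.91 CPM in the triple mutant, against 6.11, 6.36 and 5.24 CPM in humanized cells (+0.67 ± 0.12, adjusted p = 0.00214). AMA1 was higher at 5.91, 5.13 and 5.76 CPM in the triple mutant, against 3.17, 3.77 and 4.03 CPM in humanized cells (+0.61 ± 0.19, adjusted p = 0.0284). MND1, at 0.914, 0.894 and 1.80 CPM against 0.561, 0.459 and 0.659 CPM in humanized cells, rested on 30 to 59 and 14 to 19 reads (+1.09 ± 0.38, adjusted p = 0.0459). Leaving out any humanized library, or triple mutant replicate 1 or 3, ended the AMA1 call (adjusted p up to 0.106). That of MND1 was lost without any 1 of 6 libraries, and its value was +0.69 without triple mutant replicate 3 (adjusted p = 0.186). SPO22 did not differ by the test, at +0.02 ± 0.07, nor did HFM1, at +0.17 ± 0.08. The libraries stood apart for 4 of the 10 genes, against 55.8% of all sequences.

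**Figure D3:**
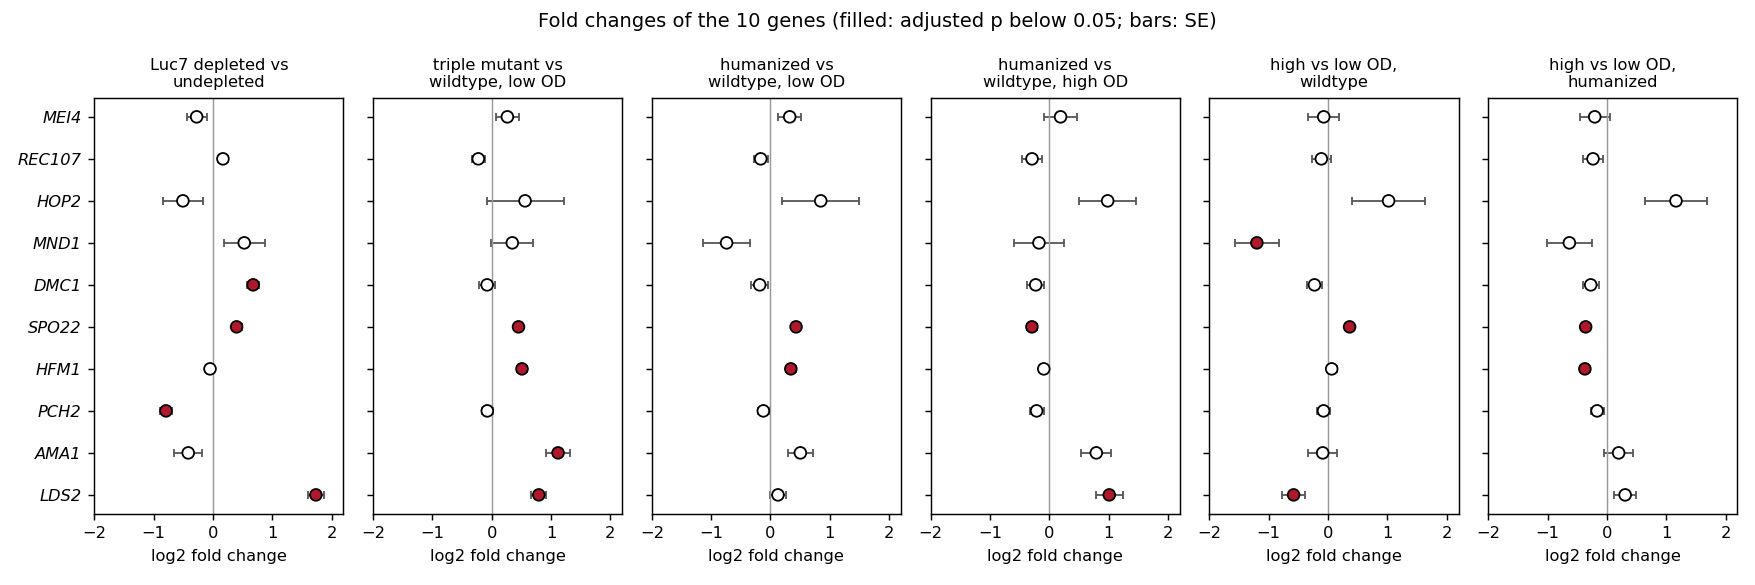
Log2 fold changes of the 10 genes in 6 comparisons, with SE as bars and filled points for adjusted p below 0.05. LDS2 is filled at +1.74 in the depletion, +0.79 in the triple mutant, +1.01 in humanized cells at high density and −0.58 for density in wildtype. The bars of HOP2 and MND1, the genes with fewest reads, are the widest.

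In humanized cells at low density 2 of the 10 genes were called, both higher, where 2.67% of all 6107 sequences were called higher, 3.88% lower and 6.55% in all. SPO22 had 34.9, 33.5 and 33.8 CPM (974 to 1059 reads) in humanized cells, against 26.5, 22.6 and 26.3 CPM (580 to 734 reads) in wildtype. The groups stood apart, and the adjusted p of 0.00609 belonged to a 1.35-fold difference. HFM1 had 40.5, 45.0 and 39.1 CPM in humanized cells, against 33.1, 28.7 and 35.8 CPM in wildtype (+0.34 ± 0.08, adjusted p = 0.0389). The HFM1 call was lost in 8 of 9 fits without 1 library (adjusted p up to 0.162) and after the offset for length and GC (+0.21, adjusted p = 0.0634). That of SPO22 held in all 9 and was lost in limma-trend (+0.47, adjusted p = 0.0613). Over the 8 alternatives that kept all libraries SPO22 ran from +0.30 to +0.47 and was called in 7.

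AMA1 had 3.17, 3.77 and 4.03 CPM in humanized cells, against 2.82, 1.79 and 3.05 CPM in wildtype, without overlap but also without a call (+0.50 ± 0.21, adjusted p = 0.136). REC107 had 21.4, 20.8 and 19.9 CPM in humanized cells, inside the wildtype values of 23.2, 27.4 and 18.7 CPM (−0.16 ± 0.11, adjusted p = 0.356). Without wildtype replicate 3, whose REC107 value was the lowest, it was called lower (−0.29, adjusted p = 0.0357), and likewise in the triple mutant (−0.36, adjusted p = 0.00459). LDS2, PCH2, DMC1 and MEI4 had differences of −0.18 to +0.32 (adjusted p of 0.291 to 0.540). HOP2 and MND1, with 3 to 18 and 14 to 19 reads in humanized libraries, had +0.85 ± 0.65 and −0.74 ± 0.40. Groups did not overlap in 3 of 10 genes, against 32.0% of all sequences.

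Ribosomal protein genes took 14.1 to 14.8% of reads in humanized cells, against 15.9 to 18.1% in wildtype, and at high density 11.6 to 12.9%, against 14.2 to 16.9%. Their part in the calls was not tested.

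The other intron genes had more falls than rises in this comparison. Of 164 tested non-ribosomal intron genes that are not among the 10, 70 fell and 4 rose in humanized cells at low density, with a median of −0.28. The median of the 10 was +0.22, and that of all sequences 0.00. With GTATGT as the 5′ site 63 of 122 fell and 0 rose (median −0.30), and with another site 7 of 42 fell and 4 rose (median −0.11). By the same split the medians were −0.33 and −0.05 in humanized cells at high density. They were −0.23 and −0.17 in the depletion and −0.14 and −0.02 in the triple mutant against wildtype. Between the triple mutant and humanized cells the order was reversed, at +0.19 and +0.23. In the depletion 81 of 165 other intron genes fell and 29 rose (median −0.22, against +0.06 for the 10), and in the triple mutant 64 of 164 fell and 29 rose (median −0.11, against +0.40 for the 10). At high density in humanized cells 66 of 165 fell and 7 rose, and both medians were negative, at −0.31 for these genes and −0.13 for the 10. In the triple mutant against humanized cells both were positive, at +0.20 and +0.08. These medians describe the lists, and the 10 genes were chosen with earlier results of these data known.

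**Figure D4:**
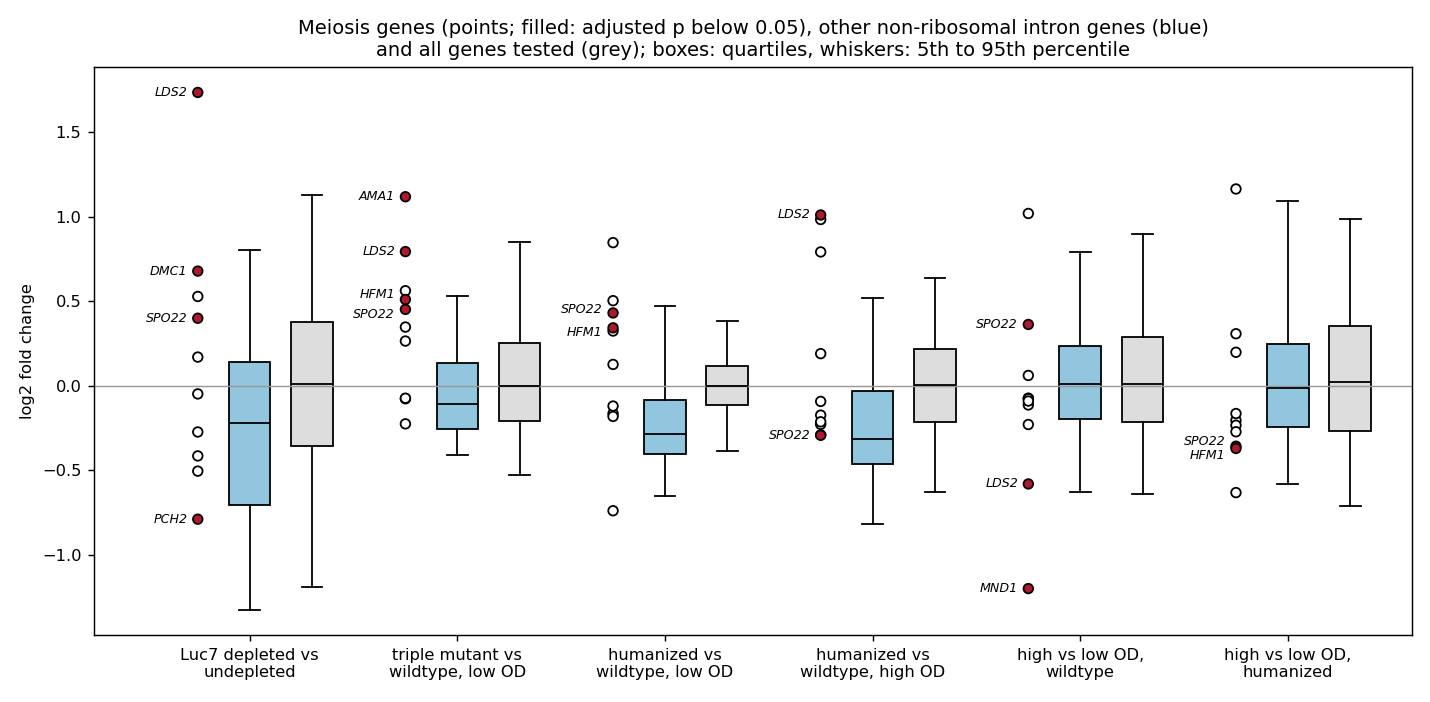
Log2 fold changes of the 10 genes (points, filled and named where called), of the other non-ribosomal intron genes (blue) and of all sequences tested (grey) in 6 comparisons. Boxes are quartiles and whiskers the 5th and 95th percentiles. At low density in humanized cells the blue median is −0.28, while the called genes SPO22 and HFM1 lie above 0.

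At high density humanized cells had LDS2 higher and SPO22 lower than wildtype (all 6119 sequences 16.0% higher and 12.6% lower, 28.6% in all). OD600 was near 8 in these humanized cells and near 5 in wildtype. Humanization and OD600 therefore cannot be told apart in any comparison of humanized with wildtype cells at high density. LDS2 had 8.03, 6.25 and 7.58 CPM (267, 198 and 399 reads) in humanized cells, against 3.20, 4.60 and 3.07 CPM (147, 147 and 91 reads) in wildtype. The groups did not overlap, and LDS2 rose 2.01-fold (+1.01 ± 0.23, adjusted p = 0.0173). SPO22 had 27.0, 27.0 and 25.7 CPM in humanized cells, against 33.4, 29.6 and 34.8 CPM in wildtype, and fell by 0.29 ± 0.08 on the log2 scale (adjusted p = 0.0301). AMA1 had 4.27, 4.58 and 3.72 CPM in humanized cells, against 2.27, 3.10 and 1.89 CPM in wildtype, just outside the call (+0.79 ± 0.25, adjusted p = 0.0520).

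HOP2 had 0.872, 0.790 and 1.08 CPM (25 to 57 reads) in humanized cells, against 0.436, 0.752 and 0.203 CPM (6 to 24 reads) in wildtype (+0.98 ± 0.48, adjusted p = 0.167). REC107 (−0.29 ± 0.17), DMC1 (−0.23 ± 0.14), PCH2 (−0.21 ± 0.12) and HFM1 (−0.09 ± 0.08) had negative values without a call, as did MND1 (−0.17 ± 0.41), and MEI4 had +0.19 ± 0.28. Groups did not overlap in 6 of the 10 genes, against 45.5% of all sequences. The SPO22 call was lost without any 1 of 5 libraries (adjusted p up to 0.121) and in limma-trend (−0.14, adjusted p = 0.395). That of LDS2 was lost without humanized or wildtype replicate 1 (adjusted p = 0.0652 and 0.0783).

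The high- and low-density libraries came from different experiments, so density and experiment cannot be told apart in what follows. The a-cell markers also differed, with 5 of 7 called higher at high density in wildtype and 6 of 7 in humanized cells, where 20.9% and 27.7% of all sequences were. In wildtype SPO22 was higher at high density and MND1 and LDS2 were lower (all 6150 sequences 20.9% higher and 22.7% lower, 43.6% in all). SPO22 had 33.4, 29.6 and 34.8 CPM at high density, against 26.5, 22.6 and 26.3 CPM at low density (+0.36 ± 0.08, adjusted p = 0.00237). LDS2 had 3.20, 4.60 and 3.07 CPM at high density, against 5.64, 4.78 and 5.71 CPM at low density, and fell by 0.58 ± 0.19 on the log2 scale (adjusted p = 0.0272). MND1 had 24, 11 and 10 reads at high density, against 23, 33 and 18 reads at low density (−1.20 ± 0.37, adjusted p = 0.0197). The LDS2 call was lost without any 1 of 4 libraries (adjusted p up to 0.107) and the MND1 call without any 1 of 3 (up to 0.0999).

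In humanized cells SPO22 and HFM1 were lower at high density and none of the 10 was called higher (all sequences 26.7% lower and 27.7% higher, 54.4% in all). SPO22 had 27.0, 27.0 and 25.7 CPM at high density, against 34.9, 33.5 and 33.8 CPM at low density, and fell by 0.36 ± 0.08 on the log2 scale (adjusted p = 0.00168). HFM1 had 33.5, 32.7 and 30.0 CPM at high density, against 40.5, 45.0 and 39.1 CPM at low density, and fell by 0.37 ± 0.09 (adjusted p = 0.00319). On the log2(TPM + 1) scale with limma-trend these values were −0.10 and −0.11 and were not called. HOP2 had 25 to 57 reads at high density, against 3 to 18 at low density (+1.16 ± 0.53, adjusted p = 0.0808). Groups did not overlap in 4 of 10 genes in wildtype and 7 of 10 in humanized cells, against 48.0% and 67.3% of all sequences.

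The humanized-to-wildtype difference itself changed with density for 3 genes, by the interaction term of the fit over the 4 groups (all sequences 9.84% higher and 8.02% lower, 17.9% in all). SPO22 had −0.72 ± 0.11 (adjusted p = 0.000826), being below wildtype at high density and above it at low density. HFM1 had −0.43 ± 0.12 (adjusted p = 0.0306), and LDS2 had +0.89 ± 0.27 (adjusted p = 0.0379). The SPO22 term held in each of 12 fits without 1 library. The HFM1 term was lost in 8 of them (adjusted p up to 0.0838) and the LDS2 term in 9 (up to 0.0987).

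Counted over the 7 pairwise comparisons, SPO22 was called in 6, LDS2 in 5, HFM1 in 3, AMA1 and MND1 in 2, and DMC1 and PCH2 in 1. MEI4, REC107 and HOP2 were called in 0. Several comparisons share libraries, so these counts are not independent of each other. They are to be read against the share of all sequences called. This share was 6.55% in humanized against wildtype cells at low density and 28.6% at high density. It was 54.8% in the triple mutant against wildtype, 33.9% against humanized cells and 68.2% in the depletion. For density it was 43.6% in wildtype and 54.4% in humanized cells. In how many of the 7 comparisons other sequences were called was not counted. In CPM the highest group mean exceeded the lowest 5.46-fold for HOP2, 4.37-fold for LDS2, 3.35-fold for MND1, 2.71-fold for AMA1 and 2.15-fold for DMC1. For PCH2, HFM1, SPO22, MEI4 and REC107 it was 1.73-, 1.45-, 1.38-, 1.34- and 1.32-fold. For REC107, MEI4, HOP2 and MND1 every group overlapped the next in order.

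No gene of the R64 annotation overlaps any of the 10, and the annotated coding neighbours on either side lay 168 to 2045 bases away. Of the 6571 counted sequences 665 were not matched to that annotation, so their overlap with the 10 was not checked. LDS2 has RRT8, another gene of the spore wall and lipid droplets, 303 bases downstream on the same strand. RRT8 averaged 50.6 ± 5.6 CPM with Luc7 depleted, against 20.9 ± 1.1 CPM undepleted (+1.27 ± 0.09, adjusted p = 8.94e-07). It was also higher in the triple mutant than in wildtype (+0.47 ± 0.10, adjusted p = 0.0026) and in humanized cells at high density (+0.71 ± 0.13, adjusted p = 0.00736), whereas at low density no call was made (−0.13 ± 0.10, adjusted p = 0.407). PSK2, 749 bases away on the other side, had +0.17 ± 0.06 in the depletion (adjusted p = 0.0294) and was not called in those other 3 comparisons. For density in wildtype, where LDS2 fell, PSK2 fell too (−0.44 ± 0.09, adjusted p = 0.00228) and RRT8 was not called (−0.18), and for density in humanized cells RRT8 rose (+0.67 ± 0.12, adjusted p = 0.000418) and LDS2 was not called (+0.31).

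**Figure D5:**
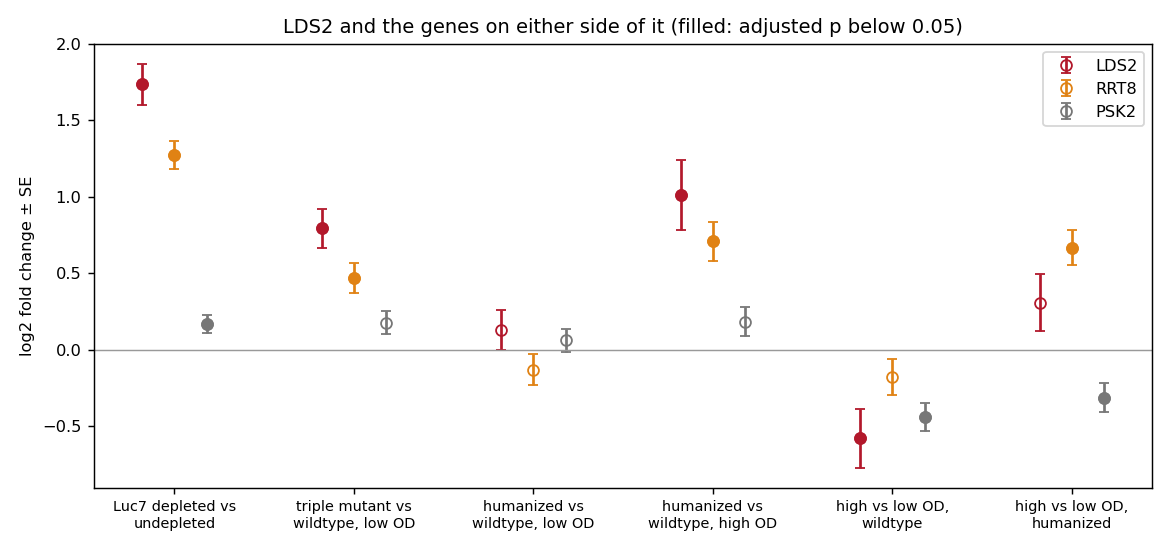
Log2 fold change ± SE of LDS2, of RRT8 downstream and of PSK2 on the other side in 6 comparisons, filled where the adjusted p is below 0.05. LDS2 and RRT8 are both filled and above 0 in the depletion, the triple mutant and humanized cells at high density, while the values of PSK2 stay within 0.5 of 0.

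Neighbours of the other called genes were also compared. GDT1, 273 bases downstream of PCH2 on the same strand, fell in the depletion like PCH2, at 97.4 ± 3.0 CPM depleted against 165 ± 18 CPM undepleted (−0.76 ± 0.08, adjusted p = 1.26e-05). MBA1 on the other side of PCH2 fell less (−0.28 ± 0.09, adjusted p = 0.0144). SER33, 446 bases downstream of SPO22 on its strand, went the opposite way from SPO22 in the depletion, at 105 ± 4 CPM against 165 ± 3 CPM (−0.66 ± 0.05, adjusted p = 1.99e-06). It was called in the direction of SPO22 in the triple mutant against wildtype (+0.20 ± 0.05, adjusted p = 0.0056), in humanized cells at high density (−0.33 ± 0.07, adjusted p = 0.0132) and for density in humanized cells (−0.27 ± 0.06, adjusted p = 0.00162). HOP1 on the other side of SPO22 rose with it in the triple mutant against wildtype (+0.49 ± 0.10, adjusted p = 0.00246). In the other pairwise comparisons in which SPO22 was called, HOP1 was not. AZR1, 497 bases upstream of AMA1 on the same strand, was higher in the triple mutant than in wildtype (+0.41 ± 0.09, adjusted p = 0.0033) and than in humanized cells (+0.38 ± 0.09, adjusted p = 0.00787), the comparisons in which AMA1 was called. RTG2 and RMR1 on either side of HFM1 were called in none of the comparisons in which HFM1 rose, and RMR1 was higher (+0.38 ± 0.12, adjusted p = 0.015) where HFM1 fell, at high density in humanized cells. Beside DMC1, PDA1 was lower in the depletion (−0.18 ± 0.05, adjusted p = 0.0124) and ISC10 was not called. STR3, 530 bases downstream of MND1, rose in the triple mutant to 14.8 ± 0.5 CPM, against 5.77 ± 0.56 CPM in wildtype (+1.35 ± 0.12, adjusted p = 1.19e-05), where MND1 was not called. Against humanized cells, where MND1 was called higher in the triple mutant, STR3 was higher too (+1.40 ± 0.12, adjusted p = 1.34e-05). For density in wildtype, where MND1 fell, GTS1 on its other side fell (−0.33 ± 0.07, adjusted p = 0.00238) and STR3 was not called (+0.36 ± 0.15). AGA2, 168 bases from HOP2 on the opposite strand, averaged 25.2 ± 6.6 CPM at high density, against 3.88 ± 0.24 CPM at low density in wildtype (+2.68 ± 0.37, adjusted p = 0.000131). The sources used here do not give the strand setting of the counting, so reads of AGA2 transcripts that run into HOP2 could not be set apart.

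The genes whose 7 group means followed each of the 10 most closely were found among about 5535 genes with a mean of 5 CPM or more. LDS2 was most like the neutral trehalase gene NTH1 (Pearson r = 0.996) and COQ3 of ubiquinone synthesis (r = 0.990), and DMC1 like AIM4 (r = 0.996) and YOR019W (r = 0.977). HOP2 was most like BNR1 (r = 0.994) and ORC3 (r = 0.982), PCH2 like ICP55 (r = 0.975), REC107 like YDR433W (r = 0.975) and MEI4 like VPS70 (r = 0.971). SPO22 (YOL075C, r = 0.967), AMA1 (MMT2, r = 0.968), HFM1 (VTH2, r = 0.953) and MND1 (YHR052W-A, r = 0.940) had looser companions. These coefficients describe 7 group means, and the best of so many genes is high by selection. Among the 10 themselves r ran from −0.78 for PCH2 with LDS2 to +0.71 for MND1 with DMC1.

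Other meiosis genes were set beside them from 3 lists. The meiotic chromosome and recombination list (22 genes) had 8 higher and 1 lower of 21 tested in the triple mutant against wildtype (median +0.19), fewer calls than the 54.8% of all sequences, including the crossover gene ZIP2 (+0.63 ± 0.10, adjusted p = 0.000598), CST9, also called ZIP3 (+0.31 ± 0.06, adjusted p = 0.0014), and the axis gene HOP1 (+0.49 ± 0.10, adjusted p = 0.00246). In the depletion it had 6 higher and 6 lower of 21 (median +0.05), against 68.2% of all sequences called, with ZIP2 at 16.3 CPM depleted against 9.24 CPM undepleted (+0.82 ± 0.10, adjusted p = 3.73e-05) and the telomere gene NDJ1 lower (−1.19 ± 0.15, adjusted p = 5.6e-05). In humanized cells 0 rose and 1 fell at low density (MSH5, a crossover gene, at −0.48 ± 0.09, adjusted p = 0.0101), and 4 rose and 1 fell of 20 at high density, where 6.55% and 28.6% of all sequences were called. MSH5 was lower at high density too (−0.68 ± 0.13, adjusted p = 0.0100).

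Of 17 regulators of meiosis 11 rose and 0 fell in the triple mutant against wildtype (median +0.27), where 28.3% of all sequences rose and 26.5% fell. IME1, the master activator of meiotic entry, averaged 14.0 ± 1.9 CPM in the triple mutant, against 6.63 ± 0.78 CPM in wildtype (+1.06 ± 0.13, adjusted p = 8.97e-05), and RIM4 (+0.51 ± 0.06, adjusted p = 7.21e-05) rose as well. So did IME4 (+0.45 ± 0.08, adjusted p = 0.00093), whose locus is known to give an antisense RNA that these counts may include. In humanized cells at low density none of the 17 was called (median +0.09). In the depletion 6 rose and 3 fell (median +0.07; all sequences 34.0% and 34.3%), with RIM4, a translational repressor of meiosis, at 57.0 ± 4.4 CPM against 28.2 ± 1.6 CPM (+1.02 ± 0.08, adjusted p = 1.32e-06) and MUM2 lower (−0.78 ± 0.06, adjusted p = 1.26e-06). With density IME2 fell in wildtype (−1.23 ± 0.10, adjusted p = 1.3e-06) and in humanized cells (−1.06 ± 0.10, adjusted p = 2.87e-06), and NDT80 fell in both as well.

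Of 31 genes of spore formation 7 rose and 16 fell in the depletion (median −0.43), where LDS2 rose and 34.0% of all sequences rose and 34.3% fell. SPS100, a spore wall gene, averaged 58.8 CPM in depleted cells, against 4.23 CPM in undepleted cells (+3.79 ± 0.21, adjusted p = 1.76e-07), while the spore wall kinase SPS1 fell (−1.87 ± 0.09, adjusted p = 1.18e-07), as did SPO21 (−1.56 ± 0.11, adjusted p = 7.03e-07). In humanized cells at high density 9 of 30 rose and 0 fell (median +0.42; all sequences 16.0% and 12.6%), among them SPO19 (+2.69 ± 0.24, adjusted p = 0.000585) and SPO21 (+1.08 ± 0.12, adjusted p = 0.00108). At low density 0 rose and 1 fell of 31 (median +0.06; all sequences 2.67% and 3.88%). In the triple mutant 13 rose and 6 fell (median +0.08; all sequences 28.3% and 26.5%), with SPO1 at +0.52 ± 0.09 (adjusted p = 0.000592).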

How the data were processed

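Per the labels' protocols, growth was in YPD or dropout medium, RNA came from a hot phenol extraction with DNase treatment, and libraries were poly-A selected. The medium may therefore differ between groups, which the rankings over all 7 groups do not take into account. Per the submitters' processing notes the authors used cutadapt and Salmon 1.9 with sacCer3. The sources used here do not give read layout, strand setting or index. The deposited tables hold estimated counts and TPM per spliced coding sequence, and the counts were rounded here before testing. Salmon divides reads shared by similar sequences.

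Of 6571 sequences 5906 matched the R64 annotation and 5886 had its coding length. Gaps of at least 20 bases between coding segments counted as introns. Libraries were grouped by label. Tests were run in edgeR 4.0.16 under R 4.3.3 (TMM, filterByExpr at its defaults, quasi-likelihood, no block), with 1 fit for the 3 low-density groups, 1 for the high-density pair, 1 for the degron pair and 1 for the 4 wildtype and humanized groups. The script was tested on simulated data. The genes, lists and rules were chosen with earlier results of these data known. Named besides the 10 were YHC1, LUC7, neighbours, the 2 genes most alike, and the 3 called genes of smallest p per list and comparison, some of which the text leaves out. Alternatives were DESeq2 size factors, DESeq2 1.42.0, no filter, limma-trend (limma 3.58.1) on log2(TPM + 1) at a mean TPM of 1 or more, only the compared groups, a replicate block, a per-library offset from GC content and coding length (spline with 4 degrees of freedom), and leaving out each library.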

Additional observations from a re-analysis of the deposited data

Results flagged for a closer look

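For 3 of the 10 genes the humanized-to-wildtype difference was not the same at the 2 densities, by the interaction term in edgeR's quasi-likelihood fit over 12 libraries. The values are the difference at high density minus that at low density, on the log2 scale. SPO22 had −0.7205 (adjusted p = 0.000826), since its difference was −0.29 at high density and +0.43 at low density. HFM1 had −0.4319 (adjusted p = 0.0306), from −0.09 at high density and +0.34 at low density. LDS2 had 0.8888 (adjusted p = 0.0379), from +1.01 at high density and +0.13 at low density. The 2 densities were separate experiments, and OD600 at high density was near 8 in humanized cells and near 5 in wildtype, so density, experiment and the unequal OD600 cannot be told apart. RRT8, the neighbour of LDS2, had an interaction of +0.85 ± 0.16 (adjusted p = 0.00419).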

How the results depend on the processing

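Over 1343 recomputed values of the 10 genes, no call changed direction under any alternative. The filter of limma-trend left HOP2 and MND1 untested in each comparison except the depletion, and HOP2 was not tested with only the 2 groups in humanized or triple mutant cells against wildtype at low density or for density in wildtype. Counts of the 10 genes called that moved by over 1.5 times come first. In humanized against wildtype cells at low density 2 called higher became 0 in limma-trend and 1 with the replicate block, with the offset for length and GC, with both, and with only the 2 groups. In the triple mutant against humanized cells 3 higher became 1 in limma-trend, where AMA1 lost its call and MND1 was not tested. AMA1 averaged 1.79 and 1.16 TPM in these 2 groups, low values whose log2 difference shrinks when 1 is added. In humanized against wildtype cells at high density 1 higher became 2 in DESeq2 (AMA1 was added, adjusted p = 0.0250) and 0 with the block, and 1 lower became 0 in limma-trend and with the block. For density in wildtype 2 lower became 0 in limma-trend, where LDS2 lost its call and MND1 was not tested, 1 with offset and block, and 0 with only the 2 groups. For density in humanized cells 0 higher became 1 in limma-trend (LDS2) and 1 with offset and block (HOP2), and 2 lower became 0 in limma-trend. For the interaction 1 higher became 0 in limma-trend and with the block, and 2 lower became 1 in limma-trend. Smaller moves were 3 higher to 4 in limma-trend in the depletion (REC107 was added), 3 higher to 2 with the block in the triple mutant against humanized cells, and 2 lower to 3 with only the 2 groups for density in humanized cells (REC107 was added, −0.22, adjusted p = 0.0299). The cause was not tested.

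Over all sequences the 400 calls at low density in humanized cells became 851 in DESeq2, 187 in limma-trend, 238 with the replicate block and 204 with only the 2 groups. The 1752 at high density became 2632 with the offset, and the 1098 of the interaction 1814 with it and 1735 with offset and block.

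With 1 library left out, the 10 genes called higher and lower numbered 1 to 2 and 0 to 1 for humanized cells at low density, 4 and 0 to 1 for the triple mutant against wildtype, 1 to 3 and 0 against humanized cells, 0 to 2 and 0 to 1 for humanized cells at high density, 3 and 1 for the depletion, 1 and 0 to 2 for density in wildtype, 0 and 2 for density in humanized cells, and 0 to 1 and 1 to 2 for the interaction. All sequences called in the same order numbered 102 to 1570, 2825 to 3567, 1434 to 2723, 799 to 1986, 3829 to 4205, 2057 to 2956, 2857 to 3606 and 754 to 1540.

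Same-numbered libraries did not pair: correlations of their deviations ran from −0.43 to 0.54, and in no comparison were all 3 above 0.1. The block ended the calls of HFM1 at low density (adjusted p = 0.0695), MND1 between the mutants (0.0759), LDS2 (0.0539) and SPO22 (0.0790) at high density and LDS2 in the interaction (0.0562). Signs changed for 47 values called in neither fit, the largest 0.30 in size. Depth limits HOP2 and MND1, whose 3 to 59 reads per library leave an SE of 0.34 or more.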
